A study of Mus musculus with 14 samples.

Results

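The regions described here are stretches of accessible chromatin that lie away from listed transcription starts and were listed in both libraries of nuclei of the series. They were chosen by position. A region of the WT list was a member if it lay more than 1000 bp from the interval of every listed gene and overlapped a region of the KO list by at least 1 bp. This gave 4992 of the 35003 WT regions. The KO list held 26493 regions. The nuclei came from the colonic muscularis of C57BL/6 mice, with 1 library labelled "WT mTmG" and 1 labelled "Carmn iKO", called WT and KO here. Both came from tissue that was dissected by hand and frozen before nuclei were isolated. The labels name these libraries for nuclear RNA alone, and the deposited matrices hold accessible regions beside the genes. mTmG is a fluorescent reporter allele, named in the WT label alone. The Carmn gene gives a long non-coding RNA found in smooth muscle. The promoter or cell type of any Cre, the age and sex of the mice, their treatment and the number of animals behind a library were looked for in the sources used here and are not stated there. The other 12 samples are bulk RNA libraries of colon and jejunum and were not used here. Since each genotype had 1 library, no difference between genotypes was tested, and every interval below covers counting error only.

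Chromatin opens where nucleosomes are displaced by transcription factors and their partners. In an assay of accessible chromatin, a transposase cuts such DNA and the cut ends are counted over regions. Promoters tend to be open in many cell types, whereas enhancers, which lie at a distance from the genes they act on, tend to be open in the cell types that use them. In smooth muscle, serum response factor with its partner myocardin binds CArG boxes beside contractile genes, and factors of the MEF2, GATA and TEAD families act at the same genes.

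The word distal needs a limit in these files. The intervals listed for genes are transcription starts and not whole genes: 61.1% of the 32272 intervals with a position are 1 bp wide, and 91.4% of those lie within 10 bp of the annotated 5′ end (GENCODE M21). A member can therefore lie inside a gene. Of the 4992 members, 2826 (56.6%) were intergenic, 1269 (25.4%) lay in introns and 897 (18%) overlapped an exon. A further limit is that 540 members (10.8%) had an annotated transcript start within 1000 bp that the gene rows do not list, and 137 overlapped a RefSeq promoter window. Measured from whole gene bodies, 2699 members would remain.

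Of the members, 115 hold a whole 300-base RefSeq start window (GRCm38.p6), 131 windows in all. These windows are where sequence could be read, so they stand for the few members that carry an unlisted start and not for all members. The first 250 bases, upstream of the start, are printed 5′ to 3′ for 8 of them. Gm36769, Gm34026 and Gm40441 were the windows with the highest fold in smooth muscle, mesothelial and epithelial nuclei of WT. Gm30212 lies in the member whose nearest listed start is that of Vcl, and the other 4 hold a CArG box. Capitals mark matches on either strand to a CArG box, MEF2, AP-1 (TGANTCA), the GATA motif (AGATAA), TEAD (GGAATG), E-box (CAGCTG), SOX (AACAAAG), FOX (GTAAACA), SPI1 (GAGGAAGT), HNF4 (CAAAGTCCA), RUNX (TGTGGTTT), or a CTCF or GRE site, and overlapping matches run together.
Gm36769: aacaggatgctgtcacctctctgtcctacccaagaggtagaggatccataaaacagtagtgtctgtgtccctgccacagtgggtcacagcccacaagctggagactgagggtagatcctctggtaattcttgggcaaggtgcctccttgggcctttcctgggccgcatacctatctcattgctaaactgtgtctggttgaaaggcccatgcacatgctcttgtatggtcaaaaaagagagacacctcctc
Gm39572: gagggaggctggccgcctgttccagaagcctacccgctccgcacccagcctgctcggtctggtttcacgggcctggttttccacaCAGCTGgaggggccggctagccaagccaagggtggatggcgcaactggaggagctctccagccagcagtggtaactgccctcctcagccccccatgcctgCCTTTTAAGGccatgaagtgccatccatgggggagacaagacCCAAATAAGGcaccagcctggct
Gm51933: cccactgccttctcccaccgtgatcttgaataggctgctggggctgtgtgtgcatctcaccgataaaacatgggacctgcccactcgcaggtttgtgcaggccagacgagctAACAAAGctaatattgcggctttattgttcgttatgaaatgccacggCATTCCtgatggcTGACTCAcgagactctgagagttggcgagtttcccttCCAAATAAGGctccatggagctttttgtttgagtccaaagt
Gm30470: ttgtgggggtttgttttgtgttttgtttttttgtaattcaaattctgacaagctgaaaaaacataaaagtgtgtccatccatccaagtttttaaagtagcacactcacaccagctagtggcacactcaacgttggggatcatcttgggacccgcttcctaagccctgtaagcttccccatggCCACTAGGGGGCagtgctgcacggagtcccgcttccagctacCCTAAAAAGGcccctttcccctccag
D230017M19Rik: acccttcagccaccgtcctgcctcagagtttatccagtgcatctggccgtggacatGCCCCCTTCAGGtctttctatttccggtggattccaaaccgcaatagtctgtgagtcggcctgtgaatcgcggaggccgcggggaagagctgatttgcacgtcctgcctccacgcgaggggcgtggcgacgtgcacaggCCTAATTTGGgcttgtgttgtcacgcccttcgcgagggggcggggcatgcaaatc
Gm30212: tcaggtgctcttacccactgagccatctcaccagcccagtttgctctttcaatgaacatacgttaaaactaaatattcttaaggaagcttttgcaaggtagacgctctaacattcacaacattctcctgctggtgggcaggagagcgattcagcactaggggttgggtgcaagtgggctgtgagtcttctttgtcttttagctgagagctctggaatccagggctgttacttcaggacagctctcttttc
Gm34026: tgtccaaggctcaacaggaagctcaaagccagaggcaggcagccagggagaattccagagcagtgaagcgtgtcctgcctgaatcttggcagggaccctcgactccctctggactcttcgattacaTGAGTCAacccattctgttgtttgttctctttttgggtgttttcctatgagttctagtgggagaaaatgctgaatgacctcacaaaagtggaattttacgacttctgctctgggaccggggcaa
Gm40441: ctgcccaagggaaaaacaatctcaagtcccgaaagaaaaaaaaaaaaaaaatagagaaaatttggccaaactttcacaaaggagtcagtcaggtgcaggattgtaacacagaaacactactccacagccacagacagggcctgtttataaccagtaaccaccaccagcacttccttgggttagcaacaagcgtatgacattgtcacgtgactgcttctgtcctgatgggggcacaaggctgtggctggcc

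The windows lie on the + strand except those of Gm36769, Gm51933 and Gm40441. They are chr10:56935392-56935641 for Gm36769, chr11:5135964-5136213 for Gm39572, chr11:117568648-117568897 for Gm51933 and chr11:79224435-79224684 for Gm30470. The others are chr1:72243743-72243992 for D230017M19Rik, chr14:20891437-20891686 for Gm30212, chr8:106399795-106400044 for Gm34026 and chr12:72844429-72844678 for Gm40441. A CArG box was found in 6 of the 131 windows (4.58%, exact Clopper-Pearson interval 1.70% to 9.70%), which belong to 5 members, against 1.63% of all 32851 RefSeq windows of 300 bases. MEF2 matches were in 0 of 131 windows (interval up to 2.78%) and in 3.19% of all windows. AP-1 matches were in 5.34% of the members' windows and 7.81% of all, GATA matches in 4.58% and 11.2%, and TEAD matches in 17.6% and 14.7%. The CTCF site was in 3.05% and 1.28%, and the E-box in 12.2% and 16.3%. SOX was in 5.34% and 5.85%, FOX in 5.34% and 3.65%, RUNX in 2.29% and 1.78%, and SPI1 in 1.53% and 3.20%. GRE and HNF4 were each in 0 of the members' windows and in 0.475% of all windows. Windows of one gene can overlap, so they are not independent, and a match describes letters only.

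The 5 members with a CArG box are given by their level in smooth muscle nuclei of WT over all other named nuclei, with the counts in smooth muscle nuclei. The region with the Gm39572 window, in an intron of Emid1 (chr11:5135718-5136588), had 64 counts in WT and 31 in KO, and a fold of 2.44 in WT and 4.30 in KO. Its printed sequence holds 2 CArG boxes. The Gm51933 region (chr11:117568050-117569400, intergenic) had 54 and 26 counts and folds of 2.40 and 1.70. The Gm30470 region (chr11:79224002-79225451, intergenic, nearest listed start Wsb1) had 41 and 28 counts and folds of 1.68 and 1.69. The D230017M19Rik region (chr1:72243536-72244536, nearest Mreg) had 54 and 28 counts and folds of 1.12 and 1.12. The Gm33933 region (chr14:6604464-6605383) had 12 and 14 counts and folds of 1.71 and 11. All 5 folds were above 1 in both libraries. Of all one-to-one members with at least 20 counts in WT smooth muscle nuclei, 61.7% were above 1 in KO, so nothing is read from these 5. The KO fold of 11 set 14 counts against 3 counts in other named nuclei, which is the floor used for folds.

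Members made up 23.9% of the 20872 distal WT regions. In comparison, 9528 of 14131 promoter-proximal WT regions (67.4%) were listed in both genotypes. A member was a median of 912 bp wide and lay a median of 27389.5 bp from the nearest listed start interval, and 80.0% lay within 100000 bp of one. The distal regions listed in WT alone lay further out, at a median of 38579 bp, and 71.6% were within 100000 bp. Of the members, 4850 paired with 1 KO region that overlapped no other WT region. These one-to-one pairs overlapped over a median of 92.1% of the WT region. The members nearest the limit were in an exon of Yy1, at 1011 bp with 176 WT counts, and in an intron of Numa1, at 1017 bp with 81 counts. Just outside lay shared regions near Zfp521, at 998 bp with 92 counts, and near Gm44955, at 992 bp with 126 counts.

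After filtering, 2650 WT and 1686 KO nuclei were kept, with a median of 500 and 448 peak counts per nucleus. Levels are given as CPM, counts per 1000000 peak counts of the same nuclei, and RNA levels as CPM of UMIs. A cut end is 1 count, and most fragments gave 2, so intervals were computed on counts divided by 2. The gene counts of the same nuclei gave the classes, and 6 classes had at least 50 nuclei in each library. Smooth muscle had 890 WT and 431 KO nuclei, enteric glia 505 and 191, mesothelial 364 and 347, epithelial 364 and 138, fibroblast 131 and 137, and enteric neuron 133 and 72. The 10 smooth muscle markers summed to 39450 CPM in WT smooth muscle nuclei and 34123 in KO. They lay between 2061 and 5786 in the 5 other classes of WT and between 1035 and 4848 in those of KO. Fibroblast markers were at 1538 in smooth muscle nuclei of WT and 2369 in those of KO, against 7314 and 8122 in fibroblast nuclei. The part of free RNA and mixed barcodes in these values was not tested. Carmn itself had 3887 UMIs in WT smooth muscle nuclei, or 1674 CPM (exact Poisson interval 1621 to 1727), and 926 UMIs or 634 CPM (594 to 676) in KO. Smooth muscle nuclei fell into 6 clusters whose make-up differed between libraries: cluster 3, led by Colec10, held 287 WT and 9 KO nuclei, whereas cluster 10 held 82 and 110. The doublet caller marked 13 WT and 1 KO barcodes, under 0.5% in both, so it cannot be taken to have removed doublets. The kept nuclei of the libraries shared 5 barcodes.

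Members were thinly covered. The median member had 34 counts over all WT nuclei, against 22 for distal regions listed in WT alone and 144 for proximal regions listed in both. Together they held 263889 counts, or 10.5% of the WT peak counts (exact Clopper-Pearson interval 10.4% to 10.5%), and 14.1% (14.05% to 14.2%) of the KO peak counts. The denominators differ, since each library's counts were summed over its own list and the KO list is shorter. Over counts in regions listed in both genotypes alone, members held 15.4% in WT and 17.6% in KO.

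Across the named classes of WT the share in members was nearly flat, and in KO it was spread out. In WT it ran from 8.29% in B lymphocyte nuclei to 10.2% in mesothelial nuclei, with smooth muscle at 9.92% (9.82% to 10.0%). In KO it ran from 9.99% in B lymphocyte nuclei to 18.03% in endothelial nuclei (17.5% to 18.5%, from 36 nuclei). KO smooth muscle nuclei had 13.2% (13.04% to 13.3%), enteric glia 15.04% (14.8% to 15.3%), mesothelial nuclei 14.6% (14.4% to 14.8%) and epithelial nuclei 11.6% (11.4% to 11.9%). The 6 smooth muscle clusters lay between 9.57% and 10.6% in WT and between 12.5% and 13.8% in KO. Each was higher in KO on these denominators, which differ between the libraries. Over counts in regions listed in both genotypes alone, cluster 9 was lower in KO, at 15.4% in WT and 14.6% in KO. The other smooth muscle clusters stayed higher in KO. Epithelial nuclei were also lower in KO on that measure, at 14.3% in WT and 13.6% in KO. Cluster 20, which had no class name, stood at 16.0% in WT and 17.97% in KO. It held 47 and 36 barcodes with a median of 8067 and 13749 UMIs. Of 286 members with at least 20 counts in its WT barcodes, 175 were at least 3-fold above the named nuclei. The share over all WT regions with as many counts was 14.6%, but regions as thin as members reach 20 counts there largely where they are high, so nothing is read from the gap. Of 173 of these with a one-to-one KO region, 118 were so in KO. The background over members that passed the same minimum was 42.3%. Its calls were these same 118 regions, so it is not a separate background.

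**Figure D1:**
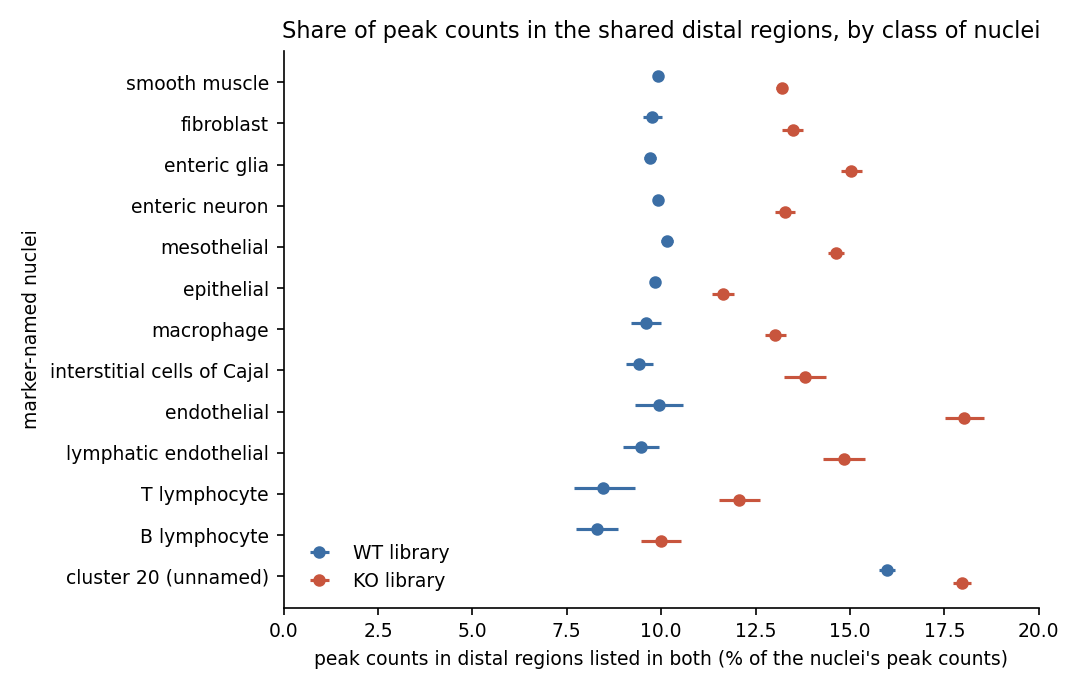
Points give the share of peak counts that fell in the shared distal regions (x axis, percent) for each class of nuclei (y axis), in the WT and KO libraries, with exact 95% Clopper-Pearson intervals. WT classes sit between 8.29% and 10.2%, KO classes between 9.99% and 18.03%, and cluster 20 is high in both.

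The gain of members over proximal regions differed in size between the classes. Over one-to-one members, the summed level in KO over that in WT was 1.33 (1.31 to 1.35) in smooth muscle nuclei, where the same ratio for proximal regions listed in both was 1.20 (1.19 to 1.21). In enteric glia it was 1.55 (1.51 to 1.59) for members and 1.08 (1.07 to 1.10) for proximal regions. In mesothelial nuclei, whose cluster 12 held 10 WT and 159 KO nuclei, it was 1.44 (1.41 to 1.47) and 1.13 (1.11 to 1.14). In fibroblasts it was 1.38 (1.34 to 1.44) and 1.17 (1.15 to 1.18). Enteric neurons had 1.34 (1.31 to 1.38) and 1.20 (1.19 to 1.21). Epithelial nuclei ran the other way, with 1.18 (1.14 to 1.22) for members and 1.26 (1.24 to 1.27) for proximal regions. With 1 library a genotype, these gaps and differences between the libraries cannot be told apart.

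In smooth muscle nuclei the members were shifted slightly upward in KO relative to other shared regions, with few large changes. Of the one-to-one members 758 (15.6%) had at least 50 counts over both libraries, and their median log2 ratio of KO over WT was 0.35. The median over all 7667 shared one-to-one regions with as many counts was 0.26, and over the 6909 proximal ones 0.24. Of the 758 members, 94 (12.4%) were at least 2-fold higher in KO and 9 (1.19%) at least 2-fold lower. The background over the 7667 regions was 7.1% higher and 1.02% lower. Scaling to the counts in regions listed in both moved the median of members to 0.07 and that of all shared regions to -0.03, and 40 members were then past 2-fold higher and 29 lower. The background under that scaling was 177 regions higher and 260 lower. The members' median stayed 0.10 above that of all shared regions, since scaling moves both alike. At the other cluster resolution, with 225 members, that gap was -0.01. That resolution left unnamed a cluster of 233 WT and 254 KO nuclei in which all 10 smooth muscle markers were raised. Its value therefore covers only a part of the smooth muscle nuclei.

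**Figure D2:**
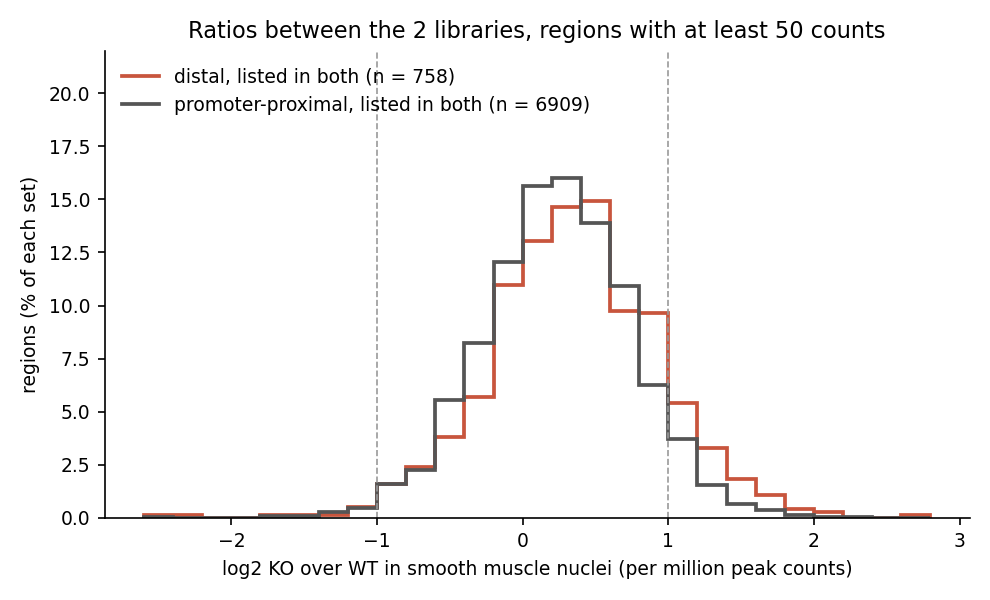
Outlines show the distribution of the log2 ratio of KO over WT in smooth muscle nuclei (x axis, bins of 0.2) as the percent of each set of regions (y axis), for 758 shared distal and 6909 shared proximal regions with at least 50 counts. Both sets peak above 0, dashed lines mark 2-fold, and the distal outline has the heavier right side.

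The lowest and highest ratios among the 120 members with at least 100 counts were set by rule, and they are given as a description. The lowest lay in an exon of Clec11a (chr7:44304807-44305769), which encodes a secreted growth factor. It had 146 counts in WT and 44 in KO smooth muscle nuclei, or 201.0 (158 to 253) and 109 (68.0 to 164) CPM, a ratio of 0.54 (0.32 to 0.88). This region lies 1132 bp from the listed Clec11a start, close to the limit that makes a member. The region in an exon of Ppcdc, a gene of coenzyme A synthesis (chr9:57420391-57421442), had 97 and 31 counts and a ratio of 0.57 (0.30 to 1.03). The intergenic region nearest Foxk1, a forkhead factor (chr5:142367104-142368089), had 91 and 31 counts and a ratio of 0.61 (0.32 to 1.11). Those nearest Slc25a1, the mitochondrial citrate carrier (chr16:17921556-17922586), and in an intron of Cntnap5c (chr17:58246993-58247955) had ratios of 0.67 (0.34 to 1.24) and 0.70 (0.40 to 1.17). Among these 5 lowest members, the interval of the Clec11a region alone left out 1. The median ratio over the 758 members was 1.28, so 1 is not the middle of this scale.

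Among the highest ratios, 4 are given. An unplaced scaffold carried the first, with 64 WT and 83 KO counts and a ratio of 2.32 (1.43 to 3.81). The region nearest Gm47772 (chr9:24541609-24542540) had 59 and 76 counts and a ratio of 2.31 (1.39 to 3.87). The region nearest Gm20546 (chr17:36230862-36231969) had 106 and 133 counts and a ratio of 2.25 (1.54 to 3.29). The region nearest Stmn2 (chr3:8244993-8246771, 262588 bp away) had 65 and 79 counts and a ratio of 2.18 (1.33 to 3.58). In smooth muscle nuclei these 4 regions stood at 0.65 to 0.82 times the level of other named nuclei in WT and at 0.73 to 1.28 times in KO. No region was removed here for high signal across classes, and whether these 4 are artefacts was not tested.

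Near the genes of smooth muscle contraction, the share of distal regions that were members was close to that over all genes. The list held 44 contractile, calcium-handling and regulatory genes. Within 100000 bp of their listed starts, as the nearest gene, lay 37 distal WT regions, of which 9 (24.3%) were members, near 9 genes. Over all 15362 distal WT regions within that distance 26.0% were members. The 9 genes were Cnn1, Mylk, Flna and Vcl of the contractile and adhesion apparatus, Pln, which restrains calcium uptake into the sarcoplasmic reticulum, the integrin gene Itga8, and Myocd, Srf and Mrtfb, which encode myocardin, serum response factor and a myocardin-related factor. The other 35 genes had no member.

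The members near the transcription factor genes had few counts, and their ratios of KO over WT lay on both sides of 1. On this scale 1 is not the middle: the median ratio was 1.28 over the 758 members and 1.19 over all 7667 shared regions. The region in an intron of Myocd (chr11:65214234-65216039, 2519 bp from its listed start) had 38 counts in WT smooth muscle nuclei and 5 in KO. That is 52.3 (31.5 to 81.7) and 12.3 (2.05 to 39.5) CPM, a ratio of 0.24 (0.04 to 0.87). The WT region is 1806 bp wide and the KO region 886 bp, and per kb the ratio was 0.48. The interval of 0.04 to 0.87 does not allow for this difference in width, so no loss is read from it. In other named nuclei the same regions had 33 counts in WT and 22 in KO. Myocd RNA was close to level in the same smooth muscle nuclei, at 522 CPM in WT and 511 in KO. The exonic region nearest Srf (chr17:46552717-46553631) had 45 and 40 counts, or 62.0 (39.1 to 93.4) and 98.7 (60.3 to 152) CPM. The intronic region of Mrtfb (chr16:13371570-13372500) had 12 and 12 counts, or 16.5 (6.06 to 36.0) and 29.6 (10.9 to 64.4) CPM. The intervals of the ratio for Srf (0.83 to 3.05) and Mrtfb (0.48 to 6.70) included 1.

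The members near structural genes had overlapping intervals in both libraries. The region nearest Itga8 (chr2:12325184-12326221) had 49 and 26 counts, or 67.5 (43.4 to 99.98) and 64.1 (34.2 to 110) CPM. The region nearest Cnn1, which encodes calponin (chr9:22095718-22096775), had 39 and 32 counts, or 53.7 (32.6 to 83.4) and 78.9 (45.1 to 128) CPM. The region nearest Vcl, which encodes vinculin (chr14:20891416-20892416), had 27 and 25 counts, or 37.2 (20.1 to 63.0) and 61.7 (32.4 to 107) CPM. Its printed Gm30212 window shows no match to the motifs searched. The region nearest Flna, which encodes filamin A (chrX:74219684-74220485), had 24 and 22 counts, or 33.0 (17.1 to 57.7) and 54.3 (27.1 to 97.1) CPM. The region in Mylk, the myosin light chain kinase gene (chr16:34744897-34745769), had 23 and 13 counts, or 31.7 and 32.1 CPM. The intronic region of Cep85l nearest Pln (chr10:53320386-53321400) had 11 and 6 counts, or 15.1 and 14.8 CPM. Neighbours in the order of WT levels, from Itga8 down to Pln, had overlapping intervals.

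**Figure D3:**
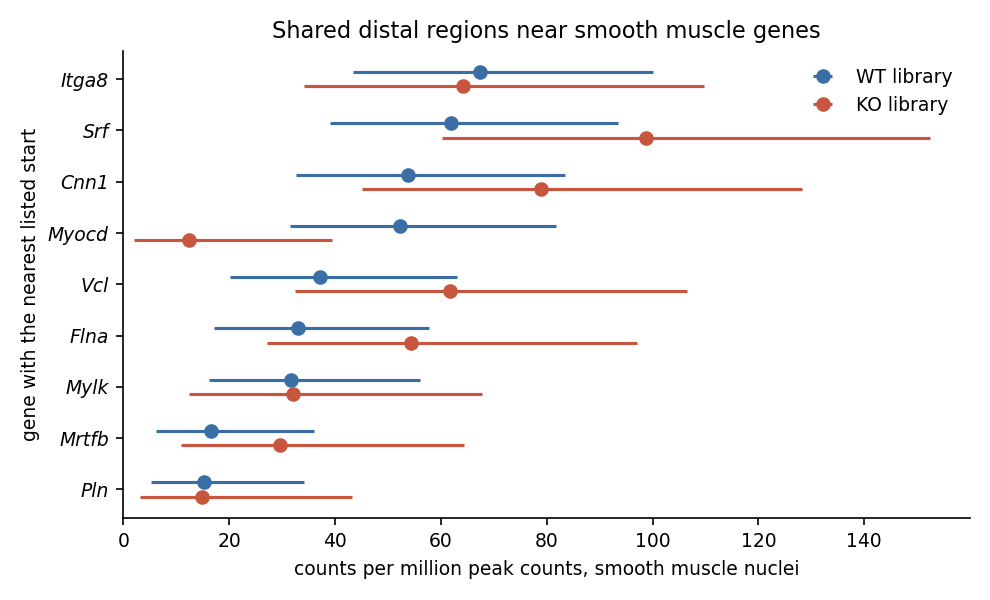
Points give the level in smooth muscle nuclei (x axis, CPM, with exact 95% Poisson intervals) of the 9 shared distal regions whose nearest listed start belongs to a smooth muscle gene (y axis). WT and KO intervals overlap for each gene. Myocd, at 52.3 in WT and 12.3 in KO, has the widest gap, from a WT region of 1806 bp and a KO region of 886 bp.

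With at least 50 counts, 4 of these 9 members could be read as ratios (Itga8, Srf, Cnn1 and Vcl), and their median log2 ratio was 0.61, against 0.35 over all members. Near the 15 glucocorticoid-responsive genes, 5 of 14 distal WT regions (35.7%) were members, beside 26.0% over all, and 4 genes had them: Ddit4 with 2, and Errfi1, Zbtb16 and Tsc22d3 with 1 each. The intronic Zbtb16 region (chr9:48739944-48740810) had 54 counts in WT and 32 in KO, and the region nearest Errfi1, a feedback inhibitor of EGF receptor signalling (chr4:150871418-150872591), 43 and 17. Their ratios were 1.06 (0.53 to 2.04) and 0.71 (0.28 to 1.63), and the median log2 ratio of these 2 was -0.21. The regions nearest Tsc22d3 (chrX:140520018-140520855) and Ddit4 (chr10:59942540-59943526) had 23 and 21 counts in WT and 11 and 11 in KO. Near 16 matrix genes, 1 of 16 distal WT regions (6.25%) was a member, in an intron of Col5a2 (chr1:45431658-45432575), with 16 and 17 counts, too few for a ratio. No member had Carmn as its nearest gene. The region 620 bp from the listed Carmn start was listed in both genotypes but is proximal.

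A set of members high in smooth muscle nuclei was chosen in WT and then read in KO. Of 1256 members with at least 20 counts in WT smooth muscle nuclei, 74 (5.89%) had a level at least 3 times that in all other named nuclei. The background over all 13251 WT regions with as many counts was 3.17%. It was 0.266% for proximal regions listed in both, which are deeply covered, and 14.4% for distal regions listed in WT alone, which are thinner than members. The minimum is counted in the class itself, so thin regions pass it largely where they are high, and these WT shares, here and for the classes below, describe the choice and show no excess of members. Set against the highest of the other classes in place of all of them together, 1 member reached 3-fold, and without cluster 3 the count was 44. The 3-fold choice used WT region counts and no KO region counts. The KO library did enter in other ways: members had to overlap a KO region, and nuclei of both libraries were clustered together. The KO reading is therefore not independent of the choice. Of the 72 chosen members with a one-to-one KO region, 27 (37.5%) were at least 3-fold higher in KO smooth muscle nuclei than in other KO nuclei, and 62 were above 1. Among all 1218 one-to-one members with at least 20 WT counts, the background was 5.25% at 3-fold, and 61.7% were above 1. The median KO fold of the 72 was 2.41, and 1.18 over the 1218. The list was chosen with results of these libraries in view, so this is a description and no test was made.

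**Figure D4:**
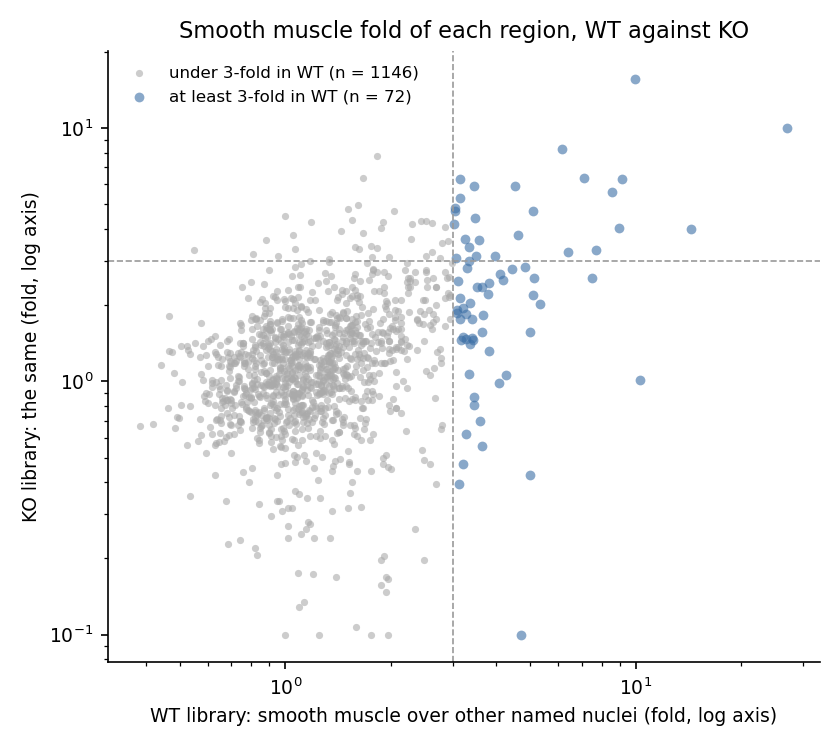
Each point is a one-to-one member with at least 20 counts in WT smooth muscle nuclei, placed by its level in smooth muscle over other named nuclei in WT (x axis, log scale) and in KO (y axis, log scale), with values under 0.1 drawn at 0.1. Dashed lines mark 3-fold, and of the 72 points to the right of the line 27 lie above it in KO.

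The regions with the highest folds were singled out from these values. The region in an exon of Gm16475 (chr7:120556165-120557202) had 38 counts in WT smooth muscle and 1 in all other named nuclei, a ratio of 81.2 (7.77 to 85914) from the counts as they are, and a fold of 27.1 with the 1 count set to 3. In KO it had 17 and 4 counts, a ratio of 10.0 (2.04 to 96.0). The intronic region of Pgm5, which encodes an adhesion protein of smooth and cardiac muscle (chr19:24770198-24771285), had 77.1 CPM in smooth muscle and 7.74 elsewhere in WT, and 98.7 and 6.28 in KO. Its ratios were 9.97 (4.05 to 29.4) and 15.7 (4.66 to 82.6), and Pgm5 RNA was 12.9-fold and 10.3-fold higher in smooth muscle nuclei of WT and KO. The intronic region of Snx19, a sorting nexin (chr9:30444898-30445850), had 129 and 14.2 CPM in WT and 98.7 and 15.7 in KO, ratios of 9.13 (4.67 to 19.5) and 6.29 (2.61 to 17.0). Snx19 RNA in smooth muscle nuclei was 1.86 and 1.17 times that of other nuclei.

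The intergenic region that holds the printed Gm36769 window (chr10:56934982-56935874) had ratios of 14.3 (4.65 to 64.0) in WT and 3.99 (1.38 to 12.6) in KO, and its window shows no motif match. The region nearest Flna had 6.41 (1.94 to 27.3) and 3.24 (1.19 to 9.28). The region nearest Tlr2 (chr3:83844746-83845709) did not hold in KO, with 10.3 (2.55 to 69.5) in WT and 1.01 (0.32 to 2.80) in KO. Regions skipped here include those nearest Gm20618, Pced1b and D030018L15Rik, with WT folds of 8.97, 8.54 and 7.69. The regions named next stood lower in the list and were not picked by rank, so no pattern of muscle genes is read from them. One lay in Ldb3, a Z-disc gene (chr14:34540406-34541458, folds of 3.09 in WT and 1.87 in KO), though its nearest listed start is that of 9230112D13Rik. The others lay in Sync, which encodes syncoilin (chr4:129297267-129298551, 3.03 and 4.18), and next to Itgb1, the beta 1 integrin gene (chr8:128679726-128680576, 4.16 and 2.53). Of the 74, 38 were intergenic, 28 intronic and 8 exonic.

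Summed over the 72 members, the level was 3446 CPM in WT smooth muscle nuclei (3258 to 3643) and 3945 in KO (3676 to 4228). The KO level was 2577 (2182 to 3022) in fibroblasts, 2095 (1838 to 2377) in mesothelial nuclei, 1617 (1313 to 1971) in enteric neurons, 1461 (1173 to 1799) in glia and 678 (467 to 952) in epithelial nuclei. KO smooth muscle thus stood above each of these 5 classes, and the interval did not overlap that of fibroblasts, the next highest. In WT the fibroblast level was 1104 (837 to 1429). The WT levels were 1042 (875 to 1232) in mesothelial nuclei, 913 (777 to 1066) in enteric neurons and 806 (669 to 964) in glia. Epithelial nuclei of WT had 602 (495 to 726). The members were chosen as at least 3-fold higher in WT smooth muscle nuclei than in all other named nuclei. Low WT levels in the other classes follow from that choice, so no gain in KO fibroblasts is read from these values. The 6 smooth muscle clusters of KO ran from 2822 (2105 to 3706) in cluster 13 to 5079 (4341 to 5906) in cluster 9. Cluster 3 had 3693 (3354 to 4057) in WT and 3384 (2108 to 5148) in KO, from 9 nuclei. The KO intervals of clusters 13 and 3 overlapped that of KO fibroblasts.

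**Figure D5:**
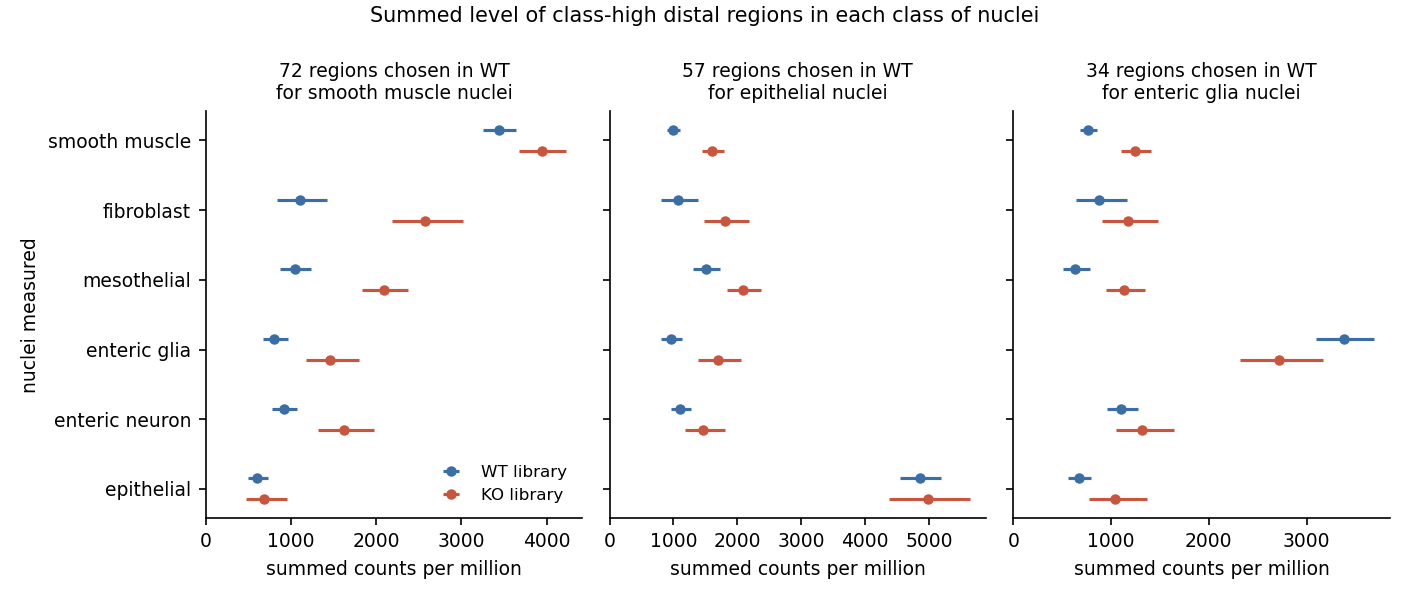
Points give the summed level (x axis, CPM, with exact 95% Poisson intervals) of the members chosen in WT as at least 3-fold higher in smooth muscle, epithelial or enteric glia nuclei, in each class of nuclei (y axis) and library. In the KO library, whose region counts did not enter the 3-fold choice, each set is highest in its own class, at 3945, 4983 and 2716 CPM.

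Epithelial nuclei belong to the mucosa and not to the muscle coat, and their class-high members had the highest share repeated in KO of the 6 classes. That rank was not tested and rests on few counts. The epithelial set had a median of 6 counts per region in its own KO nuclei, and the smooth muscle set 20. In WT 57 of 462 members (12.3%, background 6.79%) were at least 3-fold higher in epithelial nuclei, and 27 of the 57 (47.4%, background 8.65%) were so in KO. Their summed level was 4858 (4543 to 5189) CPM in WT epithelial nuclei and 4983 (4376 to 5651) in KO, where the other 5 classes lay between 1468 and 2090. The region nearest Cd38, an NAD-consuming surface enzyme (chr5:43860559-43861394), had ratios of 13.2 (3.796 to 57.5) and 18.9 (5.61 to 69.3), and Cd38 RNA was 59.9-fold and 18.1-fold higher in epithelial nuclei. The region nearest S100a11 (chr3:93505912-93506823) had ratios of 14.5 (4.29 to 62.3) and 16.5 (4.64 to 62.4). S100a11 RNA did not follow it, with epithelial folds of 1.32 in WT and 0.16 in KO and mesothelial folds of 12.8 and 14.1. The intronic region of Slc3a1, which encodes a subunit of a cystine transporter (chr17:85052163-85053227), had 9.74 (4.29 to 23.5) and 12.98 (3.89 to 43.4). Others did not hold in KO. The region nearest Btg1 (chr10:96690659-96691569) had 9.91 (4.07 to 26.1) in WT and 1.24 (0.03 to 8.59) in KO, from 2 KO counts. The top epithelial member with at least 50 counts, on an unplaced scaffold, had 4.43 (3.26 to 6.00) and 1.63 (0.87 to 2.82). The member with the printed Gm40441 window (chr12:72843808-72844682), which shows no motif match, had folds of 4.77 from 29 counts in WT and 3.42 from 5 counts in KO.

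Glia, neurons and mesothelium had smaller sets. In enteric glia 35 of 317 members (11.04%, background 3.53%) were 3-fold higher in WT, and of 34 one-to-one members 12 were so in KO (background 4.53%). The region nearest Shc4, an adaptor gene (chr2:125731642-125732743), had 58 counts in WT glia and 21 in KO glia, ratios of 5.21 (3.09 to 8.71) and 5.81 (2.45 to 13.1). In enteric neurons 30 of 407 members (7.37%, background 5.04%) were 3-fold higher, and 6 of 29 in KO (background 3.56%). The intronic Cdk8 region (chr5:146260683-146261638), with the highest fold among those with at least 50 counts, had 2.13 (1.54 to 2.90) in WT and 0.94 (0.51 to 1.59) in KO. In mesothelial nuclei 14 of 221 (6.33%, background 2.8%) were higher, and 3 of 14 in KO (background 2.36%). The region nearest Krt19, a mesothelial and epithelial keratin (chr11:100167786-100168700), had 3.77 (1.86 to 7.29) in WT and 5.91 (2.34 to 15.3) in KO mesothelial nuclei. The member with the printed Gm34026 window and its AP-1 match had 8.43 (3.25 to 22.1) and 2.46 (0.91 to 6.10). Fibroblasts had 16 members with enough counts and 1 of them (6.25%, background 7.18%) was 3-fold higher. Of 1410 members with enough counts in any of the 6 classes, 205 were 3-fold higher in 1 class and 3 in more than 1.

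The RNA of the nearest gene was compared with the class of a member. Of the genes nearest the 72 smooth muscle-high members within 100000 bp, 26 had at least 20 UMIs in WT, and 6 of these (23.1%) were at least 2-fold higher in smooth muscle nuclei. The figure was 8.80% of 1454 genes nearest any member, and 6.89% of all 13031 genes with as many UMIs. In KO it was 6 of 27 (22.2%), against 8.46%. The median fold of those genes was 1.05 in WT, so most of them were not smooth muscle genes. For the 57 epithelial-high members it was 18 of 31 genes (58.1%) in WT, against 21.9% of genes nearest any member and 20.8% of all genes, and 15 of 32 (46.9%) in KO. For enteric glia it was 6 of 18 (33.3%) against 11.7% in WT and 5 of 18 (27.8%) against 11.2% in KO. For enteric neurons it was 3 of 16 (18.8%) against 9.97% in WT and 3 of 17 (17.6%) against 10.6% in KO, with median gene folds of 0.75 and 0.53. For mesothelial nuclei it was 4 of 11 (36.4%) against 18.3% in WT and 2 of 11 (18.2%) against 18.6% in KO. The nearest listed start need not be the gene on which a region acts.

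The members with the most counts had counts in all 6 classes. They were not filtered for artefacts of high signal, and that was not tested. The highest, in an intron of Gm33838 (chr9:35304959-35305862), had 1443 counts in 416 WT nuclei and 1626 counts in KO. Its level ran from 326 to 791 CPM over the 6 classes of WT. The region nearest Gm11670 (chr11:109011399-109012367) had 1041 WT and 963 KO counts and ran from 312 to 455 CPM. The 10 members with the most counts held 3.17% of the members' WT counts, and in these 10 the highest class was a median of 2.44 times the lowest, from 1.46 to 6.41 times. Chromosome Y carried 114 members (2.28%), against 0.483% of all WT regions, and 95 of the 114 lay between 4 and 8 Mb. Summed over the 111 one-to-one members on Y, the level was 1061 CPM in WT and 1430 in KO, a ratio of 1.35 (1.24 to 1.46) beside 1.35 (1.34 to 1.36) over all one-to-one members.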

How the data were processed

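Nuclei of 1 WT and 1 KO library were analysed. The authors deposited, for each, a matrix of counts per barcode over genes and accessible regions, made with cellranger-arc 2.0.0 per the file headers, with regions listed separately in each library. The genome builds GRCm38 and mm10 are named in the submitters' processing notes. All deposited gene counts were even and were halved to UMIs, while 11.6% (WT) and 11.5% (KO) of region counts were odd and were kept. The deposited start and end positions, an unscaled other value, were read as 0-based starts and are printed 1-based. The totals of peak counts were 2999075 in WT and 1854201 in KO.

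Barcodes with at least 500 UMIs, at most 10% mitochondrial UMIs and no doublet call were kept. A minimum of 1000 peak counts, first planned, would have left 733 and 501 nuclei and became an alternative. UMIs were clustered with scanpy 1.11.5 (2000 variable genes, 30 components, 15 neighbours, Leiden resolution 1), and clusters were named from fixed markers. Region counts were summed per library and class and divided by the total of peak counts. Intervals are exact 95% Poisson or Clopper-Pearson intervals on counts divided by 2. A region at 0 to 2 counts in the comparison group was set to 3 counts for folds.

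Regions named were the 5 highest and 5 lowest ratios among members with at least 100 counts, the best member per smooth muscle, glucocorticoid and matrix gene, the top member per class, and those at the distance limit. One of these is not reported here. Others were named after their values were seen. Members, markers and lists were chosen with earlier results of these data known. Sequences are from RefSeq. A motif search over the members' own centres was not run, since no genome sequence was used here. The scripts were tested on simulated data.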

Additional observations from a re-analysis of the deposited data

Results flagged for a closer look

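Cluster 20 had no class name and entered no comparison between classes. It held 38253 of the 263889 member counts in WT and 33235 of 220197 in KO. Of 286 members with at least 20 counts in its 47 WT barcodes, 175 (61.2%) were at least 3-fold above the named nuclei, where the background over all 1895 WT regions with as many counts was 14.6%. It was 3.05% for proximal regions listed in both and 64.5% for distal regions listed in WT alone. Thin regions reach 20 counts in it mainly where they are high, so nothing is read from these shares. Of the 173 with a one-to-one KO region, 118 were also at least 3-fold above in the 36 KO barcodes, with a median fold of 3.46. The background there was 42.3% of 279 members, and all 118 of its calls were among those chosen in WT. The 175 had a median of 24 counts in the cluster and 26 in all named nuclei. The cluster held 1.77% of the WT nuclei and 9.48% of their peak counts, and 2.14% and 11.9% in KO. Its highest UMI totals were 211613 in WT and 113593 in KO. Markers of all 12 named classes were present in it, with smooth muscle markers at 12385 CPM in WT, against 39450 in smooth muscle nuclei. The part of mixed or doublet barcodes in this was not tested.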

How the results depend on the processing

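The number of members was 4414 with a limit of 5000 bp, 4777 with a reciprocal overlap over 50% of both regions and 2699 from annotated gene bodies. The share of peak counts in members was 8.57% (WT) and 11.7% (KO) with the 5000 bp limit, 10.4% and 14.2% over all deposited barcodes, 10.7% and 14.3% in nuclei with at least 1000 peak counts, 10.1% and 13.6% without the 10 members with the most counts, 15.4% and 17.6% of counts in regions listed in both, and 9.87% and 13.6% without cluster 20. It was higher in KO under each of these. The median log2 ratio of members in smooth muscle was 0.35, and it was 0.069 and 0.091 when scaled to all shared or to proximal shared regions, 0.41 and 0.32 with count minimums of 20 and 100, 0.21 in the largest smooth muscle cluster (7 members) and 0.20 at the other Leiden resolution (225 members), where it was 0.01 below that of all shared regions (difference of -0.01). In the largest cluster that difference was -0.20.

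Of members at least 2-fold lower in KO there were 29 and 27 of 758 under these scalings. There were 93 of 1897 and 0 of 120 with the count minimums, 16 of 758 per kb and 0 of 7 in the largest cluster. Over all shared regions the same counts were 260 and 249 of 7667, 242 of 10547, 15 of 2124, 104 of 7667 and 0 of 24. Of those at least 2-fold higher there were 40 and 44 under the scalings, and 380 of 1897 and 9 of 120 with the count minimums. There was 1 of 7 in the largest cluster, with 30 of 225 at the other resolution and 50 of 369 in nuclei with at least 1000 peak counts. Over all shared regions these were 177 and 192 of 7667, 1174 of 10547, 59 of 2124, 2 of 24, 329 of 3557 and 402 of 4910. The glucocorticoid members had a median of 0.65 at the other resolution, from 1 region, a reversal of sign. All values at that resolution leave out an unnamed cluster of 233 WT and 254 KO nuclei with raised smooth muscle markers. The matrix list gave no value at the minimum of 50 counts, and so has no alternative here. With a minimum of 100 and in the largest cluster no list member could be read. Members 3-fold higher in smooth muscle nuclei numbered 8 of 230 with a minimum of 50, and 187 of 1256 at 2-fold. They numbered 1 of 1256 over the highest other class and 44 of 768 without cluster 3. The share over all regions was not computed for these settings, so no excess of members is read from them. The share of them past 3-fold in KO lay between 31.0% and 37.5% over 4 alternatives and the main value. Of the other alternatives, 37 kept their value within the limits set. The causes were not tested. The alternatives with at least 1000 peak counts and without cluster 3, cluster 20 or the 10 members were chosen after seeing the data.

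The depth limits single regions: the median member had 8 counts in WT smooth muscle nuclei. The planned motif search over centres of members, with its 2 alternatives, was not run. No paired analysis was possible because each genotype had 1 library of nuclei, and for the same reason no replicate was left out.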
